A study of Mus musculus with 47 samples.

Results

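Interferon regulatory factors (IRFs) are transcription factors that share a DNA-binding domain and bind interferon-stimulated response elements. The 7 members Irf1, Irf2, Irf3, Irf5, Irf7, Irf8 and Irf9 were followed through the 12 RNA-seq libraries of a mouse series of 47 samples, of which the other 35 are not analysed here. The members were taken by gene symbol. They are 7 of the 51912 genes listed for bone marrow-derived macrophages (BMDMs), and all 7 were also listed in each of the 4 tables of the macrophage line Raw264.7, which hold between 12771 and 23772 genes. Each member passed the filter on low values in all 11 comparisons made.

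The study asked what the chromatin reader Zmynd8 does in macrophage inflammatory gene expression. BMDMs of C57BL/6 mice were grown for 5 days with M-CSF at 20 ng/ml, and were left untreated (NT) or were given LPS at 100 ng/ml or IL-4 at 20 ng/ml for 6 h. The Zmynd8 conditional knockout (cKO) carried floxed exons of Zmynd8 and 1 copy of Lyz2-Cre, a Cre placed at the lysozyme locus that is active in myeloid cells. WT denotes littermates with the floxed alleles and no Cre, so both genotypes share the floxed Zmynd8 alleles. Each BMDM library mixed 3 biological replicates, and no age of the mice is given in the sources used here. The labels of the Raw264.7 lines also give C57BL/6, a strain that was not checked here. These lines were a Zmynd8 knockout made with CRISPR (Zmynd8 KO), and the knockout with WT Zmynd8 or with the D/E-A mutant put back. The others were a p65 knockout (p65 KO), and that knockout with WT p65 or its K122R mutant. The 3 p65 lines had received LPS by their labels, and the lines with WT Zmynd8 and D/E-A by the study's account of them. The treatment of the Zmynd8 KO library, and the LPS dose and time of all 6 lines, are not given in the sources used here. There was 1 library per condition, so no difference between a pair of libraries has a replicate check.

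In resting cells Irf3 and Irf7 wait in the cytoplasm. Sensors of viral nucleic acid and of LPS signal through adaptors and the kinases Tbk1 and Ikbke, which phosphorylate them, and they then enter the nucleus and switch on type I interferon genes. Interferon acts back on the cell through its receptor, the Jak kinases and the Stat proteins, and Irf9 joins Stat proteins in the complex ISGF3, which binds the promoters of interferon-stimulated genes, Irf7 among them. Irf1 is induced by interferon gamma and by inflammatory signals, Irf2 often opposes it at the same sites, Irf5 drives inflammatory cytokine genes in macrophages, and Irf8 is a lineage factor of macrophages and dendritic cells.

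The promoters of the members are shown here because Stat, IRF and NF-kappaB factors are the known mediators of interferon and LPS responses, and because Irf1 and Irf7 differed most between the genotypes without treatment. The sequences are from RefSeq on GRCm38.p6, and all 7 members had a window of 300 bases, 250 before and 50 after a transcription start. The 250 bases before the start are given 5′ to 3′ on the gene's strand for 4 members. Capitals mark 3 kinds of match, which are GAS (TTCNNNGAA, a Stat motif, its own reverse complement), the core of the interferon-stimulated response element (ISRE core, GAAANNGAAA or its reverse complement TTTCNNTTTC) and kappaB, searched by its 10-base consensus on both strands. The windows are Irf1 at chr11:53769764-53770013 on the plus strand, Irf2 at chr8:46739495-46739744 on the plus strand, Irf8 at chr8:120736108-120736357 on the plus strand and Irf7 at chr7:141266425-141266674 on the minus strand.
Irf1: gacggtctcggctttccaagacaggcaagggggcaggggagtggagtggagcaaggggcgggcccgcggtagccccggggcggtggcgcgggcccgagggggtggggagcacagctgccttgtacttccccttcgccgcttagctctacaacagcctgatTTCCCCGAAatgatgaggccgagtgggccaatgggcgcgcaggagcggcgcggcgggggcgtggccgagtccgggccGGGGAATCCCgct
Irf2: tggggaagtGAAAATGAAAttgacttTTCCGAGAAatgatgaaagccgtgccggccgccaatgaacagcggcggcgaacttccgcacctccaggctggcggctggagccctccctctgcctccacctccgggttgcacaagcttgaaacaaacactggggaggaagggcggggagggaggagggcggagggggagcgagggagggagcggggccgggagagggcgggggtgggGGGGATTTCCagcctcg
Irf8: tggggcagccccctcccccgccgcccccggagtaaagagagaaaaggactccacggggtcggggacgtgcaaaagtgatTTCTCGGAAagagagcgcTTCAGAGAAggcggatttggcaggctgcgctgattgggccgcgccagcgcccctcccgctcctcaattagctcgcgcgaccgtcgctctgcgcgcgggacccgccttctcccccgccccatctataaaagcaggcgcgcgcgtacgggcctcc
Irf7: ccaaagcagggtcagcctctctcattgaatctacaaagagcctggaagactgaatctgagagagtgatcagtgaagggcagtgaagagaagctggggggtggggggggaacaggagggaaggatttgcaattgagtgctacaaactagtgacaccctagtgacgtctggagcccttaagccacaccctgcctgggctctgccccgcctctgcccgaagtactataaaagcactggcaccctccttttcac

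With position -1 as the last base before the start, Irf1 held a GAS match from -90 to -82 and a kappaB match from -13 to -4. Irf2 held all 3 kinds of match, the ISRE core from -241 to -232, GAS from -224 to -216 and kappaB from -17 to -8. Irf8 held 2 GAS matches, from -171 to -163 and from -153 to -145. No match stood in the windows of Irf3, Irf5, Irf7 and Irf9. Of the 32851 promoter windows of RefSeq, 8.30% held GAS, 3.44% the ISRE core and 4.51% kappaB. These matches are letters in a window and were not tested as binding sites. The RefSeq start lay 75 bases from the gene's start in the deposited Raw264.7 tables for Irf7 and 495 bases from it for Irf5. Against the gene positions given next it lay 414 bases inside the gene for Irf9, 57 for Irf7 and 13 for Irf2. Irf1, Irf8 and Irf9 each had 2 RefSeq windows, of which the 1 nearest the deposited start was searched.

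In the annotation used for positions (mm10), each member is a protein-coding gene that overlaps at least 1 other gene. Irf1 lies at chr11:53770014-53778374, Irf2 at chr8:46739732-46847458, Irf3 at chr7:44997648-45002848, Irf5 at chr6:29526625-29541871, Irf7 at chr7:141262706-141266481, Irf8 at chr8:120736358-120756694 and Irf9 at chr14:55603571-55610030. Irf7 is on the minus strand and the other 6 on the plus strand. Gm20388 covers all 20337 bases of Irf8 on the same strand, and had 899 to 1906 counts per BMDM library, so that reads of Irf8 could be split between the 2 genes. Rnf31 shares 123 bases with Irf9 on the same strand. Irf1, Irf2, Irf3, Irf5 and Irf7 overlap genes of the opposite strand, the longest overlaps with sizeable counts being Tnpo3 with Irf5 over 1045 bases and Bcl2l12 with Irf3 over 1065 bases. Whether the counting used strand is not given in the sources used here.

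The BMDM libraries held 22597408 to 28386612 counts, and the Raw264.7 libraries 15127110 to 21040841 reads as recovered from the deposited values. All 7 macrophage markers were detected in every library, at a summed 6380 to 9637 counts per 1000000 counts of the library (CPM) in BMDMs. Zmynd8 itself had 2284 and 1842 counts in NT, 1967 and 2033 in LPS and 3636 and 3944 in IL-4, in WT and cKO in turn, so that the gene's total does not show the deletion, which removes only some of its exons. Lyz2, the Cre locus, was lower in the cKO in all 3 treatments, by a log2 fold change of -0.60 in NT, -1.25 in LPS and -0.77 in IL-4. Of the markers of other cells, the 8 neutrophil genes summed to 2.33 and 2.35 CPM in NT and 4.22 and 2.56 CPM in LPS but to 382 and 514 CPM in IL-4, and dendritic cell genes to at most 21.3 CPM and B and T cell genes to at most 17.2 CPM. Flt3 was at 0 in the NT and LPS libraries. The female-specific RNA Xist differed between the genotypes, at 740 and 323 CPM in NT, 246 and 429 CPM in LPS and 1108 and 1057 CPM in IL-4, in WT and cKO. The part of these in the results below was not tested. In mixed cells, fewer cells of a type and less RNA per cell cannot be told apart.

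Set side by side per transcript length, as transcripts per 1000000 (TPM), Irf7 was the most abundant member in 4 of the 6 BMDM libraries, and its share of the family varied the most. In WT NT the order was Irf7 458, Irf5 235, Irf8 103, Irf9 66.9, Irf3 48.6, Irf1 46.5 and Irf2 42.9 TPM, in which the counting limits of Irf3 and Irf1, and of Irf1 and Irf2, overlapped. In cKO NT it was Irf5 199, Irf7 112, Irf8 83.0, Irf3 49.0, Irf9 40.9, Irf2 21.4 and Irf1 20.3 TPM, in which those of Irf2 and Irf1 overlapped. Irf5 thus stood first without treatment in the cKO and Irf7 in WT.

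After LPS the order was the same in both genotypes. Irf7 had 3780 and 3350 TPM, Irf1 556 and 592, Irf5 321 and 352, Irf8 189 and 161, Irf2 82.6 and 90.7, Irf9 62.9 and 59.6 and Irf3 26.3 and 27.8 TPM in WT and cKO, with no overlap of limits between neighbours. Irf1, next to last or last in NT, became the second member.

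After IL-4 Irf7 and Irf5 stood together at the top, at 407 and 397 TPM in WT and 367 and 369 TPM in the cKO, and their limits overlapped in both. Below them in WT came Irf8 at 125, Irf2 at 111, Irf1 at 88.2, Irf9 at 57.9 and Irf3 at 51.5 TPM. In the cKO Irf8 at 104 and Irf1 at 103 TPM overlapped, and Irf2 at 77.1, Irf9 at 63.4 and Irf3 at 50.4 TPM followed. The 7 members summed to 1001 TPM in WT NT and 526 in cKO NT and to 5017 and 4633 with LPS, while after IL-4 they summed to 1239 and 1135. Irf7 made up 45.7% of that sum in WT NT and 21.2% in cKO NT. Its share was 75.3% and 72.3% with LPS, and 32.9% and 32.4% with IL-4.

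**Figure D1:**
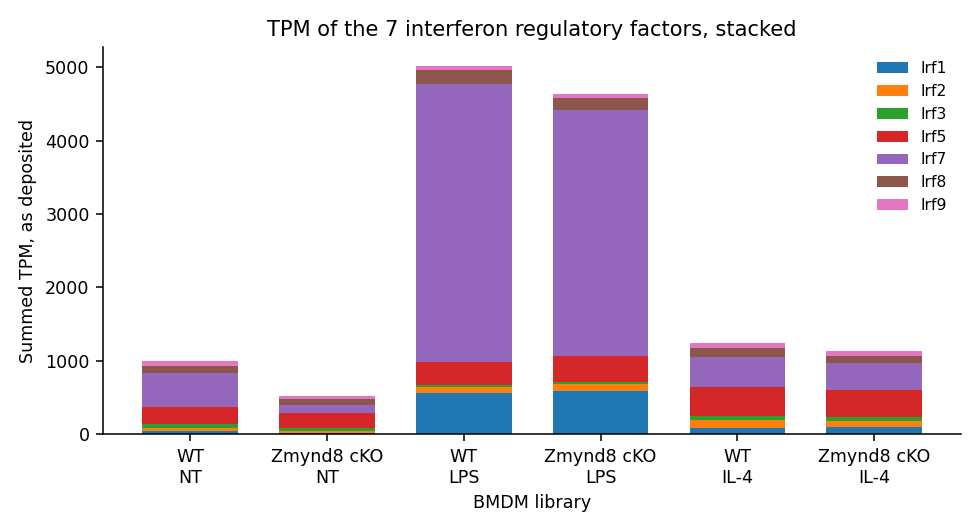
Deposited TPM of the 7 members, stacked, in each of the 6 BMDM libraries (x axis: genotype and treatment, y axis: TPM). The LPS bars reach 5017 and 4633 TPM and are mostly Irf7, and the untreated cKO bar stands at 526 TPM beside 1001 TPM in untreated WT.

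Without treatment the cKO library had less Irf7, Irf1, Irf2 and Irf9 than the WT library and slightly more Irf3, with Irf7 furthest apart. Levels from here on are CPM, and log2 fold changes and the folds taken from them are on log2(CPM + 1). Brackets hold 95% Clopper-Pearson limits on the reads without the added 1, which cover counting error only. A gene was called where the fold was at least 1.2 and the exact binomial test on the reads of both libraries, adjusted over all genes by Benjamini-Hochberg, gave p under 0.05. That test compares 2 libraries and not 2 conditions. Irf7, the amplifier of interferon production, stood at 503 CPM in WT and 144 CPM in cKO, a log2 fold change of -1.80 [-1.86, -1.75], or 3.48-fold lower. Only 0.514% of the genes tested had a lower log2 fold change than Irf7.

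Irf1 stood at 59.0 CPM in WT and 31.8 CPM in cKO, a log2 fold change of -0.87 [-1.02, -0.76] with an adjusted p of 6.71e-44 by the exact binomial test. Irf2, the antagonist of Irf1, had 61.5 and 40.9 CPM and fell by 0.57 on the log2 scale, with limits of -0.70 and -0.47. Irf9, the DNA-binding part of ISGF3, had 103 and 78.3 CPM, a log2 fold change of -0.39 [-0.48, -0.30]. All of these lay lower in the cKO, and Irf7 and Irf1 lay outside the middle 50% of all genes by the most.

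Irf3, which is kept ready in the cytoplasm, had 36.1 and 43.6 CPM and was called higher at 0.27 [0.14, 0.40], a fold just past the threshold of 1.2. Irf3 was level in the deposited TPM, at 48.6 and 49.0, a log2 fold change of 0.01. Irf5 had 321 and 323 CPM, a log2 fold change of 0.01 [-0.04, 0.06], and Irf8 had 190.0 and 183 CPM, a log2 fold change of -0.05 [-0.11, 0.01]. The exact binomial test gave an adjusted p of 0.742 for Irf5 and 0.139 for Irf8, and neither was called.

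Counted together, 5 of the 7 members were called in NT, 4 lower and 1 higher. Of the 12463 genes tested 47.6% were called, 25.9% lower and 21.7% higher, so that a call alone says little and the size and direction carry the description. The members' median log2 fold change was -0.39 and that of all genes -0.01. In the deposited TPM, where the median of the same genes was -0.20 and 12.5% were past the fold on the higher side and 44.1% on the lower, Irf7 had -2.03, Irf1 -1.16, Irf2 -0.97 and Irf9 -0.70, while Irf8 had -0.31 and was then past the fold of 1.2 and Irf5 had -0.23 and was not.

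**Figure D2:**
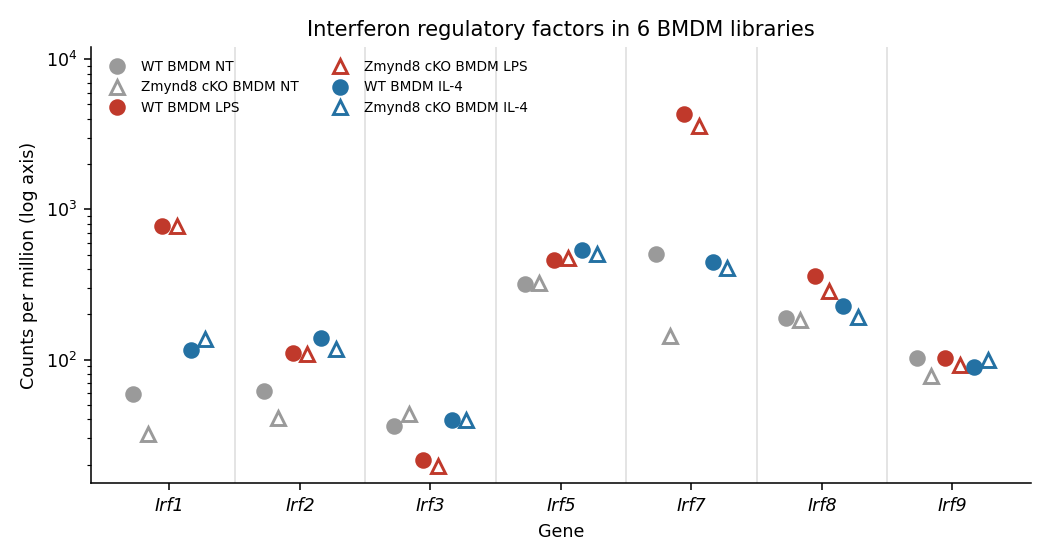
CPM (y axis, log scale) of each member (x axis) in the 6 BMDM libraries, with 1 point per library, filled circles for WT, open triangles for cKO, and grey, red and blue for NT, LPS and IL-4. Irf7 in NT shows the widest gap between the genotypes, at 503 and 144 CPM, and the LPS points of Irf1 and Irf7 stand furthest above their NT points.

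After LPS the genotypes lay close together. Irf7 stood at 4293 CPM in WT and 3585 CPM in cKO, a log2 fold change of -0.26 [-0.27, -0.25], just under the fold of 1.2 and not called. Irf8 stood at 359 and 287 CPM and was called lower, at -0.32 [-0.37, -0.28] with an adjusted p of 3.65e-42 by the exact binomial test. Irf9 had 103 and 92.1 CPM, a log2 fold change of -0.16. Scaled by the median ratio of the libraries or by TMM, Irf7 too was called, at -0.31 and -0.30.

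The other 4 differed little after LPS. Irf1 had 771 and 775 CPM, a log2 fold change of 0.01 [-0.02, 0.04]. Irf2 had 110.3 and 109 CPM (-0.02), and Irf5 463 and 476 CPM (0.04). Irf3 had 21.6 and 19.6 CPM, the lowest level of the family, and a log2 fold change of -0.13 [-0.32, 0.04]. Irf8 was the 1 call in 7 members, beside 25.9% of 12386 genes called, 8.76% lower, and the members' median was -0.13 against 0.03 for all genes. In the deposited TPM Irf8 had -0.23 after LPS and no member was past the fold.

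After IL-4 no member was called between the genotypes, where 24.2% of 13245 genes were. Irf1 stood at 116 CPM in WT and 137 CPM in cKO, a log2 fold change of 0.25 [0.18, 0.32]. Irf2 stood at 140.2 and 118 CPM, a log2 fold change of -0.25 [-0.32, -0.18]. Irf8 stood at 227 and 192 CPM, a log2 fold change of -0.24 [-0.29, -0.18]. Irf2 was called lower with median-ratio scaling, at -0.27, and was past the fold in the deposited TPM, at -0.52. In Irf1, Irf2 and Irf8 the adjusted p of the exact binomial test was under 0.05 and the fold under 1.2.

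Smaller differences after IL-4 were those of Irf7, at 449.8 and 408 CPM (-0.14), Irf5, at 537 and 503 CPM (-0.09), and Irf9, at 89.0 and 98.9 CPM (0.15), and these also had an adjusted p under 0.05 by the exact binomial test. Irf3 stood at 39.6 and 39.8 CPM (0.01, adjusted p = 0.959). Irf1 and Irf9, lower in the cKO without treatment, had the larger value in the cKO here. The members' median was -0.09 and that of all genes 0.01.

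**Figure D3:**
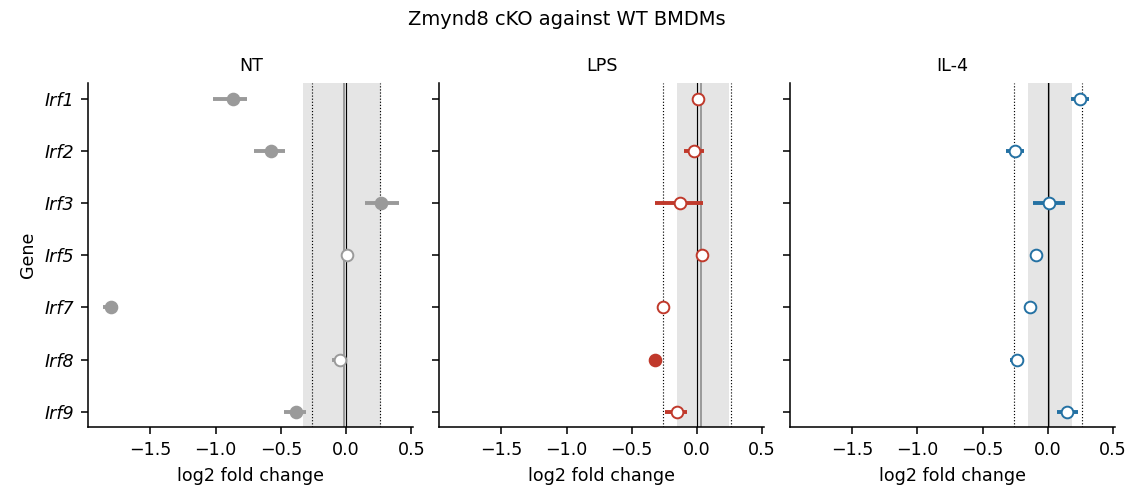
Log2 fold change of cKO over WT (x axis) for each member (y axis) in NT, LPS and IL-4, with horizontal bars of 95% counting limits, filled points for called members and dotted lines at a fold of 1.2. The grey band holds the middle 50% of all genes tested, and Irf7 at -1.80 and Irf1 at -0.87 lie furthest from it, both in NT.

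Irf1 and Irf7 had the largest steps of the family after LPS. In WT Irf1 rose 12.9-fold, from 59.0 to 771 CPM (log2 fold change 3.69 [3.63, 3.78]), and Irf7 rose 8.52-fold, from 503 to 4293 CPM (3.09 [3.07, 3.12]). In the cKO Irf1 rose 23.7-fold, from 31.8 to 775 CPM (4.56), and Irf7 24.8-fold, from 144 to 3585 CPM (4.63). Only the starting levels of these genes lay far apart between the genotypes, and the levels after LPS were near each other.

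Irf2 rose 1.78-fold in WT and 2.61-fold in the cKO, Irf8 1.89-fold and 1.56-fold, and Irf5 1.44-fold and 1.47-fold. With TMM scaling the log2 steps in WT and the cKO were larger, at 1.41 and 1.94 for Irf2, 1.5 and 1.2 for Irf8, 1.11 and 1.12 for Irf5, 4.26 and 5.11 for Irf1 and 3.67 and 5.19 for Irf7. Irf3 was called lower in both, from 36.1 to 21.6 CPM in WT (-0.72) and from 43.6 to 19.6 CPM in the cKO (-1.11). The median of all genes moved in the same direction as Irf3, to -0.58 in WT and -0.55 in the cKO. With TMM scaling these medians were -0.10 and -0.08, and Irf3 was then at -0.15 and not called in WT and at -0.57 and still called in the cKO. With TMM scaling Irf3 was thus lower after LPS in the cKO, while in WT it stayed under the fold of 1.2. In the deposited TPM Irf3 had -0.86 in WT and -0.80 in the cKO. The medians of all genes there were -0.56 and -0.27, so this contrast of the genotypes depends on the scale.

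Irf9 stood at 103 CPM in both WT libraries (log2 fold change 0.00) and at 78.3 and 92.1 CPM in the cKO (0.23), and was called in neither. With TMM scaling it was called higher in both, at 0.58 in WT and 0.78 in the cKO. Of the 7 members 6 were called in WT, 5 higher and 1 lower, where 81.7% of 12813 genes were called, 20.6% higher and 61.1% lower, a split that TMM changed to 33.9% and 41.0%. In the cKO it was again 5 higher and 1 lower of 7, where 82.7% of 12666 genes were called, 23.8% higher and 58.9% lower, and with TMM 36.6% and 41.0%. The members' median was 0.83 in WT and 0.65 in the cKO.

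IL-4 raised Irf1, Irf2 and Irf5 in both genotypes. Irf2 went from 61.5 to 140.2 CPM in WT, or 2.26-fold, and from 40.9 to 118 CPM in the cKO, or 2.83-fold. Irf1 went from 59.0 to 116 CPM in WT, or 1.94-fold, and from 31.8 to 137 CPM in the cKO, or 4.21-fold. Irf5 rose 1.67-fold and 1.56-fold, log2 steps of 0.74 and 0.64 that were 0.56 and 0.41 with TMM scaling. Irf2 had its highest level of all 6 libraries in WT after IL-4, and Irf5 likewise.

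Irf7 was called in the cKO and not in WT. It stood at 503 CPM before and 449.8 CPM after IL-4 in WT, a log2 fold change of -0.16 [-0.20, -0.13], and at 144 and 408 CPM in the cKO, a log2 fold change of 1.5 [1.45, 1.56]. Irf9 had -0.20 in WT and was called higher in the cKO, at 0.33 [0.25, 0.43]. With TMM scaling, Irf7 and Irf9 were called lower in WT, at -0.34 and -0.38, and Irf9 was no longer called in the cKO, at 0.11. The whole set of genes shifted by 0.15 in WT and 0.17 in the cKO without such scaling and by -0.01 and -0.03 with it.

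Irf3 was called in neither genotype after IL-4, at 0.13 in WT and -0.13 in the cKO, and with TMM scaling was called lower in the cKO, at -0.35. Irf8 was called in neither, at 0.25 in WT, just under the fold of 1.2, and at 0.07 in the cKO. In the cKO it was at -0.16 with TMM scaling and at 0.33 and past the fold in the deposited TPM, so its direction there depends on the scale, and in WT it was at 0.08 and, past the fold, 0.28. In WT 3 of 7 members were called, all higher, where 60.3% of 13090 genes were called, 38.6% higher and with TMM 28.4%. In the cKO 5 of 7 were called, all higher, where 67.0% of 12966 genes were called, 42.2% higher and with TMM 32.7%. The members' median was 0.25 in WT against 0.15 for all genes and 0.64 in the cKO against 0.17.

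The LPS and the IL-4 comparison of a genotype share its NT library, so a low or high NT value enters both. The step of the cKO minus that of WT is by arithmetic the genotype difference after treatment minus that in NT, and it was not tested. For Irf7 it was 1.54 (counting SE 0.03) for LPS and 1.66 (0.03) for IL-4, for Irf1 0.88 (0.07) and 1.12 (0.07), and for Irf2 0.55 (0.07) and 0.33 (0.07). For Irf9 it was 0.23 and 0.54, for Irf3 -0.40 and -0.26, for Irf8 -0.27 and -0.19 and for Irf5 0.03 and -0.10. In the deposited TPM Irf8 had steps of 0.86 in WT and 0.95 in the cKO for LPS, and 0.28 and 0.33 for IL-4. Irf5 had 0.45 and 0.82 for LPS and 0.76 and 0.89 for IL-4, and Irf3 had -0.86 and -0.80 for LPS. The direction for Irf8, Irf3 with LPS and Irf5 with IL-4 thus depended on the scale. Irf7, Irf1, Irf2 and Irf9 kept theirs. Xist also differed most between the genotypes in NT, at 740 and 323 CPM, and the part of the makeup of the NT mixes in these steps was not tested.

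**Figure D4:**
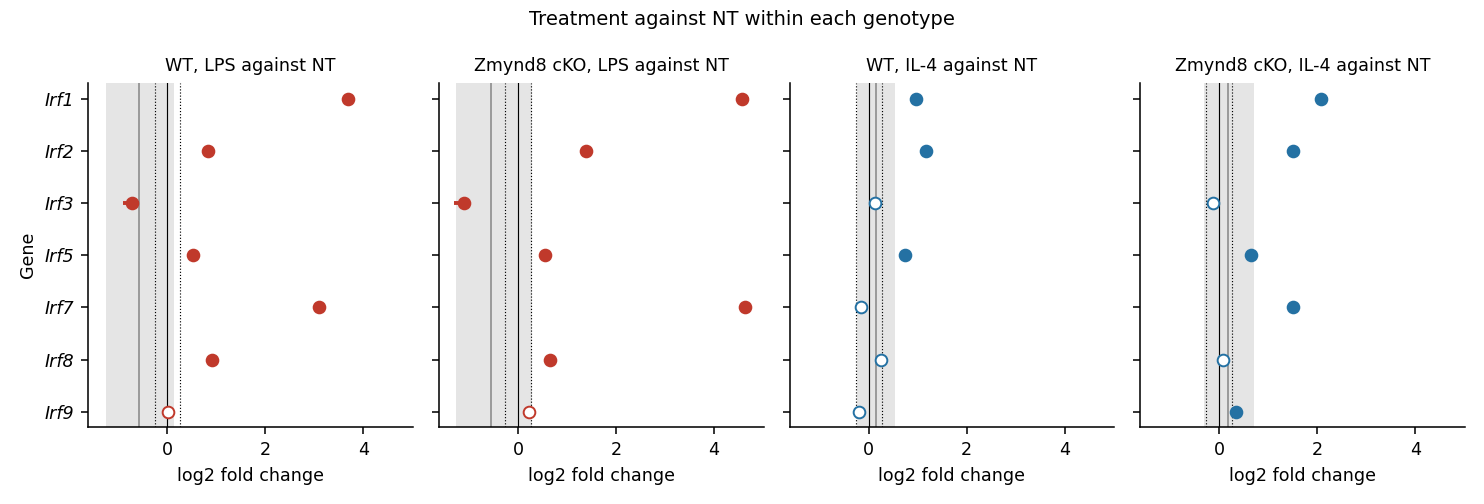
Log2 fold change over NT (x axis) for each member (y axis) after LPS or IL-4 in WT and cKO BMDMs, with 95% counting limits, filled points for called members, a grey band for the middle 50% of all genes and a grey line at their median. Irf7 and Irf1 stand furthest right after LPS, further in the cKO (4.63 and 4.56) than in WT (3.09 and 3.69), and Irf7 after IL-4 lies on either side of 0 in the 2 genotypes.

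All 6 BMDM libraries were also fitted in 1 additive model of genotype and treatment, with edgeR's quasi-likelihood test and Benjamini-Hochberg adjustment. The libraries of the other treatments then stand in for replicates, 2 residual degrees of freedom remain, and a genotype difference that changes with treatment counts as error. For genotype, 0 of the 7 members were called, and 0% of 13074 genes were. The log2 fold change of the cKO over WT across the treatments was -0.73 for Irf7 (adjusted p = 0.999 by edgeR), -0.29 for Irf2 and -0.21 for Irf1 and for Irf8. At an unadjusted p under 0.05 there were 403 genes and none of the members, and DESeq2 called 40 genes and none of the members. The NT differences above are thus differences between the NT libraries that this model did not separate from the spread of the genotype difference over treatments.

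In the same model LPS raised 6 of the 7 members, where 50.8% of genes were called and 25.1% higher. Irf1 had a log2 fold change of 4.78 (adjusted p = 0.000211 by edgeR) and Irf7 of 4.44 (adjusted p = 0.000641), and Irf2 1.77, Irf8 1.43, Irf5 1.2 and Irf9 0.77 (adjusted p = 0.0180). Irf3 was not called, at -0.30 (adjusted p = 0.237). IL-4 raised 2 of the 7, Irf1 by 1.35 (adjusted p = 0.0260) and Irf2 by 1.18 (adjusted p = 0.00886), where 20.8% of genes were called and 10.6% higher. Irf5 was at 0.52 for IL-4, with an adjusted p of 0.121 by edgeR and 0.0480 by DESeq2, and Irf7 at 0.44 (adjusted p = 0.491 by edgeR).

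For Irf8 the values depend on how reads were shared with Gm20388. Added up, the 2 genes had 5878 counts in WT NT and 5694 in cKO NT, a log2 fold change of 0.17 where Irf8 alone had -0.05. The sum gave -0.30 between the genotypes after LPS, still called lower, and -0.15 after IL-4. The LPS step was 0.84 in WT and 0.37 in the cKO for the sum, against 0.92 and 0.65 for Irf8 alone. After IL-4 in WT the sum was called higher at 0.39.

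The genes around the IRFs were counted in lists of textbook members. Among 16 sensors, adaptors and kinases that act upstream of the IRFs, 12 were lower and 1 higher in cKO NT, with a median log2 fold change of -0.54. Of all genes 25.9% were lower and 21.7% higher there. The lowest was Ifih1, a cytosolic RNA sensor, at -1.53, and the highest Tmem173, the STING adaptor, at 0.47. After LPS 3 were higher and 1 lower, from Ticam2, an adaptor of Tlr4, at 0.37 to Tmem173 at -0.27, shares near the 17.1% and 8.76% of all genes. After IL-4 5 were higher and 3 lower, from Ddx58, the RNA sensor RIG-I, at 0.81 to Tlr4, the LPS receptor, at -0.46, where 13.8% of all genes were higher and 10.5% lower. The list's medians after treatment were 0.09 and 0.18, beside 0.03 and 0.01 for all genes.

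The interferon receptor list held 12 genes, and 11 were tested in NT because Ifnb1 did not pass the filter there. Between the genotypes in NT 7 of 11 were lower and none higher (25.9% and 21.7% of all genes), with a median of -0.40, from Ifngr1, a chain of the interferon gamma receptor, at -0.02 to Stat2, a partner of Irf9, at -1.51. After LPS 1 of 12 was higher, Jak2 at 0.34, and 2 lower, of which Ifnb1, the interferon beta that Irf3 and Irf7 switch on, was the lowest at -0.65, from 61 counts in WT to 28 in the cKO, where 17.1% of all genes were called higher and 8.76% lower. After IL-4 5 of 11 were higher and none lower (13.8% and 10.5% of all genes), the highest being Usp18, an interferon-induced brake on the receptor, at 0.83.

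The 30 interferon-stimulated genes, which are targets of ISGF3 and the IRFs, were all lower in cKO NT, where 25.9% of all genes were lower and the median of all genes was -0.01. Their median was -1.68, from Oas1a, which makes the activator of RNase L, at -0.62 to Ifit2, a translation inhibitor, at -3.13, which went from 18283 to 1784 counts. After LPS 4 of 30 were lower and none higher, where 8.76% and 17.1% of all genes were, with a median of -0.06 beside 0.03 for all genes, from Parp14 at 0.23, not called, to Bst2, tetherin, at -0.41. After IL-4 28 of 30 were higher and none lower, where 13.8% and 10.5% of all genes were, with a median of 0.97 beside 0.01 for all genes, from Cxcl10, a chemokine, at 2.09 to Bst2 at 0.13, not called. The summed level was 7159 and 2225 CPM in NT, 62425 and 63300 CPM after LPS, and 2875 and 5342 CPM after IL-4, in WT and cKO. These lists were chosen with earlier results of these data known, and nothing about them was tested as a set.

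The steps of the same lists ran as follows. LPS raised all 30 interferon-stimulated genes in both genotypes, where 20.6% of all genes were higher in WT and 23.8% in the cKO, with medians of 3.34 and 4.67. Cxcl9, an interferon gamma-induced chemokine, was the highest in both, at 8.85 and 9.70, and the lowest was Oas3 at 0.56 in WT and Rtp4 at 1.54 in the cKO. IL-4 left 25 of 30 lower and 1 higher in WT, with a median of -1.10 from Iigp1 at 0.81 to Rsad2, viperin, at -3.08, and 28 higher and 1 lower in the cKO, with a median of 1.12 from Gbp5 at 4.02 to Cxcl9 at -0.50. Of all genes 38.6% were higher and 21.7% lower in WT, and 42.2% and 24.8% in the cKO. The genotypes thus went different ways after IL-4 from NT libraries that already differed in the list's sum, and the difference of the steps was not tested.

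The steps of the upstream and receptor genes are given side by side with no test of their difference. The cKO steps start from an NT library in which 12 of 16 upstream and 7 of 11 receptor genes were already called lower than in WT, and of all genes 20.6% in WT and 23.8% in the cKO were called higher and 61.1% and 58.9% lower after LPS, and 38.6% and 42.2% higher and 21.7% and 24.8% lower after IL-4. After LPS 8 of the 16 sensors, adaptors and kinases were higher and 2 lower in WT (median 0.45), and 13 higher and 2 lower in the cKO (median 1.15). Tlr9, a DNA sensor, was the highest at 3.58 and 5.32, and Mavs, the adaptor of the RNA sensors, the lowest at -1.54 and -1.33. In the receptor list 9 of 12 were higher in WT and 11 in the cKO, with Socs1, a feedback inhibitor of the Jak kinases, at 5.65 and 5.61. After IL-4 9 of 16 upstream genes were higher and 3 lower in WT, from Tmem173 at 1.97 to Ddx58 at -0.94, and 14 higher and none lower in the cKO, led by Tlr9 at 3.62. The receptor list had 7 higher and 3 lower of 11 in WT, from Socs1 at 3.20 to Stat2 at -0.79, and 11 of 11 higher in the cKO, from Jak2 at 3.99 to Ifnar2 at 0.48.

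Of the 3 IRF2-binding cofactors 1 was lower in cKO NT, Irf2bpl at -0.41, while Irf2bp2 had 0.05. After LPS 2 were higher in the cKO, Irf2bp2 the most at 0.77, and after IL-4 none was called. The LPS step lowered all 3 in WT, from Irf2bpl at -0.78 to Irf2bp2 at -1.47, and 2 of 3 in the cKO, the lowest being Irf2bp1 at -0.85, beside medians of all genes of -0.58 and -0.55 and 61.1% and 58.9% of all genes called lower (41.0% in each with TMM scaling). Of 9 macrophage transcription factor partners 3 were higher and 3 lower in cKO NT, from Batf3 at 0.72 to Cebpb at -1.04, beside 21.7% and 25.9% of all genes. After LPS 3 were higher and 2 lower, from Cebpb at 0.44 to Spi1, the PU.1 with which Irf8 binds DNA, at -0.44, and after IL-4 2 were higher and 2 lower, from Batf at 1.23 to Batf3 at -0.84. With lists of 3 and 9 genes these counts are few, and stand beside the 17.1% and 8.76% of all genes after LPS and the 13.8% and 10.5% after IL-4.

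Of the family outside the members, Irf4, which partners PU.1 and takes part in the IL-4 response of macrophages, had 1.87 and 1.24 CPM in NT and 1.00 and 0.469 CPM after LPS, in WT and cKO. After IL-4 it stood at 75.8 CPM in WT and 31.9 CPM in the cKO, so it rose in both, by 4.74 and 3.88 on the log2 scale, and was lower in the cKO by a log2 fold change of -1.22 with an adjusted p of 2.64e-108 by the exact binomial test. In the NT and LPS libraries it had at most 1.87 CPM.

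Over the 6 libraries the range between the highest and lowest CPM, without the added 1, was 29.9-fold for Irf7 and 24.4-fold for Irf1. It was 3.43-fold for Irf2, 2.22-fold for Irf3, 1.96-fold for Irf8, 1.67-fold for Irf5 and 1.31-fold for Irf9. Pearson's r of log2(CPM + 1) over these 6 libraries, which hold 2 genotypes under 3 treatments and are a description only, was 0.965 between Irf1 and Irf7, 0.957 between Irf2 and Irf5, and -0.972 between Irf3 and Irf7. Irf9 varied least.

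The genes with a pattern most like each member's, by the same r over 6 libraries among the 9933 genes whose mean count reached 100, were Rasa4 and Ttc9c for Irf1 (both 0.997), Aftph and Npepps for Irf7 (both 0.998), Mtus1 and Axl for Irf2 (both 0.993), Pycrl and Cdc123 for Irf3 (1.00 and 0.999), Cxcl16 and Tctn1 for Irf5 (0.994 and 0.992), Ift22 and Hap1 for Irf8 (0.993 and 0.992), and 2810021J22Rik and Lgmn for Irf9 (0.944 and 0.895). These values describe the 6 libraries and say nothing of a shared function.

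The Raw264.7 values have another scale. They are signals normalised by the authors within each table of 2 lines, and are compared only within a table, with a fold of at least 1.2 on log2(value + 1) as the call and no test. The targeted genes followed the labels in the knockouts, with Zmynd8 at 506 with WT Zmynd8 put back and 116 in the Zmynd8 KO, and Rela, which encodes p65, at 1574 with WT p65 and 778 in the p65 KO. In the D/E-A line Zmynd8 stood at 509 against 474 with WT Zmynd8, a log2 fold change of 0.10 [-0.08, 0.29]. In the K122R line Rela stood at 5963 against 1571 with WT p65, so the 2 lines differed in the amount of Rela RNA. Zmynd8 was lower in the K122R line, at 1091 against 1791, a log2 fold change of -0.72 [-0.83, -0.61]. In the p65 KO it stood at 1652 against 1795 (-0.12). The label of the WT p65 library names it as the p65 KO with WT p65, while the heading of its data column names Raw, WT and LPS and no knockout.

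The 2 sets of Raw264.7 lines differed in ways the labels do not give. Raw264.7 came from a male mouse, yet the 3 Zmynd8-line libraries had 7109 to 8467 reads of Xist, and the 3 p65-line libraries 0 to 3 reads. The 8 neutrophil markers summed to 6967 CPM in the Zmynd8 KO, 10354 CPM with WT Zmynd8 and 4422 CPM with D/E-A, and to 0.18 to 0.32 CPM in the p65 lines. Dendritic cell genes stood at 111 to 186 CPM and B and T cell genes at 150.1 to 212 CPM in the Zmynd8 lines, and the 7 macrophage markers at 3695 CPM in the KO, 2874 CPM with WT Zmynd8 and 4456 CPM with D/E-A. All 3 Zmynd8-line libraries carry these genes, so both comparisons among them rest on such libraries and have no value without them, and the part of other cells in the values below was not tested. The neutrophil sum was highest, and the macrophage sum lowest, with WT Zmynd8.

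Both lines that lack normal Zmynd8 had more Irf1, Irf2, Irf5 and Irf8 and less Irf3 than the line with WT Zmynd8. They share that WT Zmynd8 library, whose values enter both comparisons. Irf1 stood at 4006 with WT Zmynd8 and 6581 with D/E-A (log2 fold change 0.72 [0.66, 0.77]), and went from 4275 to 6959 in the KO in the other table, 0.70 [0.65, 0.76]. Irf2 went from 1564 to 3112 with D/E-A, 0.99 [0.90, 1.08], and from 1669 to 2702 in the KO, 0.69 [0.61, 0.78]. Irf2 had the largest difference of the family with D/E-A.

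Irf8 went from 7951 to 11853 with D/E-A (0.58) and from 8486 to 11607 in the KO (0.45). Irf5 went from 3490 to 4712 (0.43) and from 3725 to 5149 (0.47). Irf3 stood at 928 with WT Zmynd8 and 515 with D/E-A, a log2 fold change of -0.85 [-1.01, -0.69], and at 991 and 637 in the table of the KO, -0.64 [-0.78, -0.49]. Irf3 was the 1 member called lower in each.

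Irf7, the highest of the members' signals there, went from 57687 to 51376 with D/E-A (-0.17) and from 61570 to 64429 in the KO (0.07), and Irf9 from 2434 to 2723 (0.16) and from 2598 to 2810 (0.11), and these 2 were not called. Counted, 5 of 7 members were called with D/E-A, 4 higher and 1 lower, where 72.6% of 12769 genes were called, 36.7% higher and 35.9% lower. In the KO it was also 4 higher and 1 lower, where 70.3% of 21300 genes were called, 33.8% higher and 36.5% lower. The members' medians were 0.43 and 0.45, and those of all genes 0.02 and -0.03.

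In the p65 lines after LPS, Irf1 was higher in the K122R line and in the p65 KO than with WT p65, and both comparisons share the WT p65 library. Irf1 stood at 623 with WT p65 and 1045 with K122R, a log2 fold change of 0.75 [0.60, 0.89], and Irf7 at 13637 and 21140, a log2 fold change of 0.63 [0.60, 0.66]. The others were not called with K122R, and had -0.12 (Irf2, from 1073 to 988), 0.20 (Irf3, from 387 to 443), 0.13 (Irf5, from 5936 to 6510), 0.09 (Irf8, from 1699 to 1803) and 0.18 (Irf9, from 2038 to 2303). Scaled by library totals of reads, where the median of all genes was -0.17 in place of 0.01 and 23.2% were called higher and 42.8% lower, Irf2 had -0.26 and was called lower.

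With WT p65 and in the p65 KO, Irf1 stood at 624 and 770, a difference of 0.30 [0.15, 0.46] on the log2 scale, Irf3 at 387 and 491, 0.34 [0.15, 0.54], and Irf5 at 5949 and 7212, 0.28 [0.23, 0.33]. Irf2 (from 1075 to 1215, 0.18), Irf7 (from 13666 to 14729, 0.11), Irf8 (from 1703 to 1750, 0.04) and Irf9 (from 2042 to 2158, 0.08) were not called. With K122R 2 of 7 members were called, both higher, where 63.3% of 19668 genes were called, 30.8% higher and 32.5% lower. In the p65 KO 3 of 7 were called, all higher, where 51.9% of 19879 genes were called, 26.3% higher and 25.7% lower. The members' median was 0.18 in both, and that of all genes 0.01 in both.

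**Figure D5:**
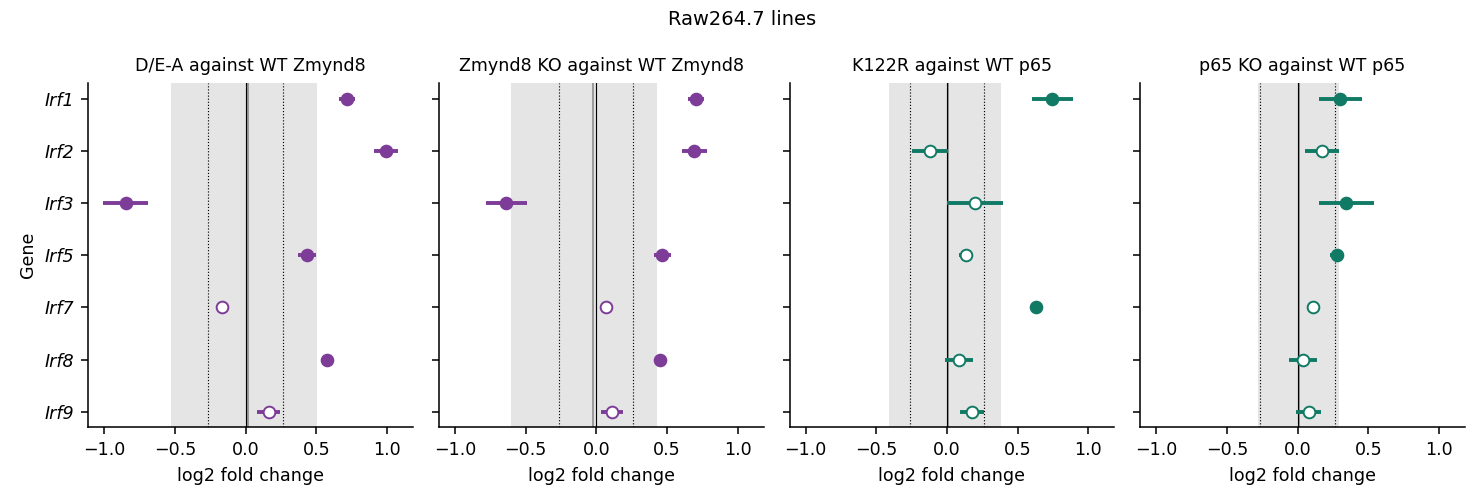
Log2 fold change (x axis) of each member (y axis) in 4 comparisons of Raw264.7 lines, with 95% counting limits on the recovered reads, filled points past a fold of 1.2 (dotted lines) and a grey band for the middle 50% of all genes. Irf1 is on the higher side in all 4 panels, and Irf3 is lower in both Zmynd8 panels, at -0.85 and -0.64, and higher in the p65 KO, at 0.34.

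The same lists in Raw264.7 stand beside large shares of all genes past the fold, 36.7% higher and 35.9% lower with D/E-A and 33.8% and 36.5% in the Zmynd8 KO. Of 30 interferon-stimulated genes 21 were higher with D/E-A and 4 lower (median 0.64), from Cxcl9 at 2.48 to Bst2 at -0.89, and in the Zmynd8 KO 18 were higher and 1 lower (median 0.36), from Cmpk2 at 1.17 to Bst2 at -0.29. Ifnb1 was the lowest of the receptor list in both, from 429 to 119 with D/E-A (-1.84) and at -0.75 in the KO, while 10 of its 12 genes were higher in each, led by Socs1 at 1.04 and 0.96. Of the 16 upstream genes 12 and 10 were higher and none lower, led by Tlr9 at 1.98 and 1.41. Interferon beta thus was lower while most of the other genes of the lists were higher.

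With K122R 30.8% of all genes were higher and 32.5% lower, and in the p65 KO 26.3% and 25.7%. With K122R 17 of 30 interferon-stimulated genes were higher and none lower, with a median of 0.30 from Gbp2 at 0.99 to Dhx58 at -0.18, and Ifnb1 had -0.90. Of the receptor list 4 of 12 were higher and 2 lower, with Ifnar1, a chain of the interferon receptor, at 0.69, and of the upstream list 5 of 16 were higher and 1 lower, from Tlr4 at 1.33 to Mb21d1, the DNA sensor cGAS, at -0.62, shares of higher genes near that of all genes. In the p65 KO none of the 30 was higher and 4 were lower, with a median of -0.06 from Ifit2 at 0.25, not called, to Iigp1 at -1.16. Of its upstream list 1 was higher, Tlr4 at 0.62, and 6 were lower, the lowest Ikbke at -0.53, and of the receptor list 4 were higher and none lower, from Ifngr2 at 0.33 to Jak1 at -0.22.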

How the data were processed

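RNA-seq of 6 BMDM and 6 Raw264.7 libraries was used, 1 library per condition. RNA was poly(A)-selected. TopHat was the aligner, run by the authors against the transcriptome of mm10, and the submitters' processing notes also list CASAVA 1.4, Bowtie 0.12.2, mm8 and mm10. For BMDMs the authors deposited estimated counts and TPM per gene. For Raw264.7 the deposited values are a signal per gene, which came out as whole reads times a size factor (tolerance 0.05; 100% of values, and 99.9908% in the Zmynd8 KO library, where 2 were not whole). The recovered reads gave the counting limits. Tables were normalised separately. The 431, 431 and 2 rows of the BMDM tables that name no gene hold 0% of the counts. The authors' fold changes and p-values, and 2 columns of per-sample values without a label, were not used.

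Counts were rounded and scaled by library totals to CPM, and genes whose mean reached 10 counts (Raw264.7: a mean signal of 1) were compared on log2(value + 1). BMDM libraries were compared by a two-sided exact binomial test on counts, adjusted over all genes, with a fold of at least 1.2 and 0.05 as thresholds, after the study's methods. An additive model of genotype and treatment over the 6 BMDM libraries, on genes whose mean reached 10 counts, was fitted with edgeR's quasi-likelihood test and with DESeq2. Raw264.7 lines were called by the fold alone. An exact binomial test on the recovered reads as an alternative called 7840 of 12769 genes with D/E-A, 6683 of 21300 in the Zmynd8 KO, 5217 of 19668 with K122R and 2620 of 19879 in the p65 KO, with the number of members called unchanged in each (5, 5, 2 and 3). The exact binomial test was run on simulated counts with counting error only, and the edgeR model on counts with a set spread. Neither simulation took its spread between libraries from these data, so they check the code and not the calls. Genes were named by a fixed rule: the 7 members, the 2 genes most like each over the 6 BMDM libraries, the targeted genes and the Cre locus, and the highest and lowest gene of each list described. Xist, Ifnb1, Irf4, the genes overlapping members and the marker genes at 0 were named beyond that rule, after their values were seen. The members and the lists were chosen with earlier results of these data known. Python 3.11.15, numpy 2.4.6, scipy 1.17.1, pandas 2.3.3, matplotlib 3.10.9, R 4.3.3, edgeR 4.0.16 (TMM factors and the additive model) and DESeq2 1.42.0 were used.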

Additional observations from a re-analysis of the deposited data

How the results depend on the processing

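No alternative reversed a called member. Of 567 values of the 77 member results in comparisons of 2 libraries, 511 kept their side of the threshold, 20 newly passed it and 36 no longer did, 30 of these because the fold had to reach 2. With that fold 1 member was called between the genotypes in NT, 0 after LPS and 0 after IL-4, beside 3.83%, 0.904% and 1.97% of all genes. For LPS 2 were called in WT and 4 in the cKO, beside 43.3% and 46.0% of all genes. For IL-4 1 was called in WT and 3 in the cKO, beside 16.2% and 21.1%. In each of the 4 Raw264.7 comparisons 0 were called, beside 15.8% to 25.6%. With TMM scaling 2 members were called between the genotypes after LPS and 5 for IL-4 in WT, and with median-ratio scaling 2 and 5, beside 25.7% and 58.5%, and 25.6% and 58.4%, of all genes. Median-ratio scaling also called 1 between the genotypes after IL-4 (Irf2 at -0.27), beside 24.2% of all genes. The deposited TPM was an alternative chosen, like the sum of Irf8 and Gm20388, after the data were seen. In it 0 members passed the fold between the genotypes after LPS. After IL-4 1 did (Irf2 at -0.52), beside 17.0% of all genes higher and 15.7% lower. The median of all genes moved by over 0.1 with the scaling in the LPS and IL-4 steps, in K122R and, for TPM, in NT, as given above, and from -0.55 to -0.27 for the LPS step and from 0.17 to 0.34 for the IL-4 step of the cKO in TPM. By the fold in TPM 28.04% of genes were higher and 10.5% lower between the genotypes after LPS, 30.2% and 50.4% for the LPS step of the cKO, and 55.2% and 16.9% for its IL-4 step. The cause of these changes was not tested. The smaller pseudocount changed no call of a member in the 11 comparisons, nor did the fold alone in the 7 of BMDMs, nor other filters in the 10 where they changed the genes tested (with D/E-A they left all 12769 genes in place). No replicates could be paired, as there is 1 library per condition, and for the same reason no replicate could be left out. The additive model of the 6 BMDM libraries, which pairs the genotypes by treatment, was added after the data were seen. With DESeq2 in place of edgeR it called 0, 6 and 3 members for genotype, LPS and IL-4, beside 40, 6551 and 3128 of 13074 genes. With edgeR it called 0, 6 and 2, beside 0%, 50.8% and 20.8% of genes. Among the members in BMDMs, depth limited Irf3 the most, whose lowest count of 460 left limits of -0.32 and 0.04 between the genotypes after LPS.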
